A study of Mus musculus with 8 samples.

Results

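The 10 genes described here encode lysosomal proteases of the cathepsin group (Ctsb, Ctsd, Ctsl, Ctsk, Ctss, Ctsz), the asparaginyl protease legumain (Lgmn), and phagocyte proteins (Gpnmb, Apoe, Trem2). They are a set of gene symbols picked for what the genes do, with earlier results of these data known, and all 10 were among the 13387 genes of the count table. Bulk RNA-Seq had been performed on 8 libraries of C57BL/6 murine bone marrow megakaryocytes (MKs), of which 4 were cultured alone and 4 together with mesenchymal stem cells (MSCs). The cells were kept in culture for 18 hours, and each library was made from several wells pooled. Cells in suspension were taken off the adherent MSCs by hand, according to the methods, so that the cocultures are not sorted MKs. The paper reports that MKs and MSCs separated from its cocultures were pure, with neither cell type contaminating the other. Both cell types were wild type, and the labels give neither the age nor the sex of the mice. According to the methods, MKs were enriched from marrow by CD41 and MSCs were sorted as cells positive for CD51 and PDGFRα and negative for CD45, Ter119 and CD31. The labels describe the sequenced cells as MKs, whereas the paper describes platelets made in the cultures, so the libraries are called MKs here, after their labels.

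Cathepsins are made as inactive precursors and become active in the acid of the lysosome, where they degrade proteins taken up from outside or delivered from within the cell. Most are cysteine proteases, and cathepsin D is an aspartic protease. In bone marrow they are abundant in macrophages, which engulf dying cells and expelled nuclei, and cathepsin K is the collagen-degrading protease of osteoclasts. Trem2 is a lipid-sensing receptor that signals through the adaptor Tyrobp, and apolipoprotein E is one of its ligands. Gpnmb is a membrane glycoprotein of macrophages and other cells with a heavy lysosomal load.

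Libraries held 4939874 to 12523616 counts. Replicate 3 of the cocultures stood apart, with 2652 genes at 0 against 194 to 981 in the other libraries. Of these genes, 1012 had at least 10 counts in every other library, whereas no other library had more than 4 such genes. Results that rest on this library are therefore given with and without it. The labels were also checked against marker genes. The 15 MK and platelet markers summed to 1959 to 2266 CPM (counts divided by library size after edgeR's TMM scaling) in MKs alone and 1762 to 2388 CPM in cocultures, and none of the 15 was called by edgeR or DESeq2, with 1 lower at an unadjusted p under 0.05 in edgeR. Without coculture 3, edgeR called 1 of them higher (Selp) and 3 lower (Gp1ba, Gp6 and Gata1). The highest of them was Pf4, platelet factor 4, at 841 ± 210 (SD, n = 4) and 1070 ± 362 CPM. The 9 neutrophil markers, led by S100a8, summed to 84188 to 85920 CPM in MKs alone, more than the MK markers, and to 4289 to 10178 CPM in cocultures. The labels do not say whether libraries of a group came from separate animals. The paper's figure legend gives n = 4 mice per group for its RNA-Seq, described there as of pooled platelets. It does not say which library came from which mouse. The p-values therefore measure the spread between these libraries, which may be technical.

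Cathepsins and phagocyte lysosomal genes were higher in the cocultures. Calls required a mean of 1 CPM or more in either group, a change of 2-fold or more, and a p from edgeR's quasi-likelihood test that was 0.05 or less after Benjamini-Hochberg adjustment. Of the 10 genes, 9 passed the filter on low counts and 8 were called higher in cocultures, against 13.2% of the 11722 genes tested. None was called lower, against 7.31% of genes tested, and none had a log2 fold change below 0 with edgeR or DESeq2. The median log2 fold change of the 9 genes was 2.42, and that of all genes tested was 0.03. Trem2 passed the filter through the cocultures, so that it could only have been called higher. Every coculture was above every library of MKs alone for 9 of the 10 genes, Ctsk being the exception, and for 17.8% of all 13387 genes. In bulk samples, fewer cells of a type and less RNA per cell cannot be told apart.

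**Figure D1:**
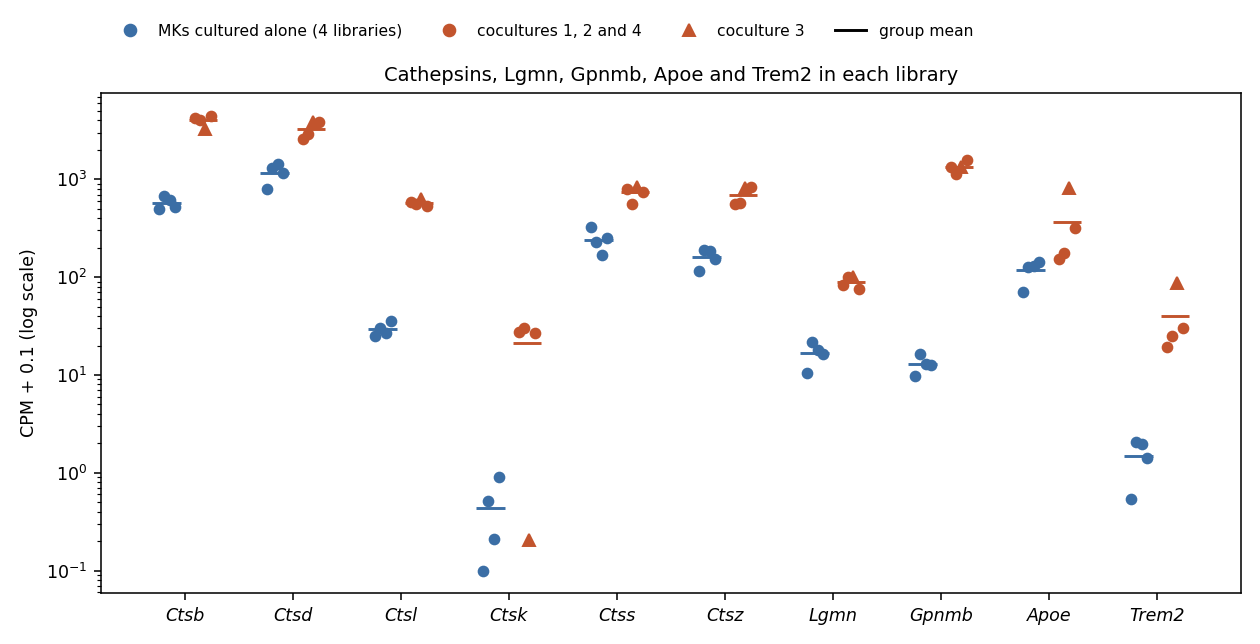
CPM of the 10 genes on a log scale, with a small offset so that 0 can be drawn, in each library of MKs cultured alone (blue points) and of cocultures (orange points), with group means (short lines). Coculture replicate 3 (triangles) lies with the MKs alone for Ctsk and above the other cocultures for Apoe and Trem2.

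Promoters of the cathepsin genes are shown where they hold letters recognized by factors that control lysosomal or macrophage genes. Of the 10 genes, 9 were found in the RefSeq promoter table (GRCm38.p6, 250 bases before to 50 bases after each start site, 12 promoters), and Ctsb was not. Both strands were searched for CACGTG, the E-box bound by the MiT/TFE factors of lysosome biogenesis, for TCATGTGA, an M-box bound by MITF, and for GAGGAAGT, a core bound by the macrophage factor PU.1. These motifs do not overlap one another in letters. CACGTG was present in 7.15% of the 32851 promoters, TCATGTGA in 0.986% and GAGGAAGT in 3.20%. Ctsd held CACGTG at 245 and at 98 bases upstream of its start site, Ctsl at 236 bases upstream and Lgmn at 49 bases upstream of 1 of its start sites. These distances are from RefSeq start sites, whereas the gene spans given below are from GENCODE. The Ctsd match at 98 bases and the Ctsl and Lgmn matches lie inside those spans. Ctss held TCATGTGA 18 bases after its start site and, on the other strand, GAGGAAGT 2 bases before it. The matches are printed 5′ to 3′ on the strand of the gene, with the motif in capitals, and are a description of letters, not of binding.
Ctsd, chr7:142388055-142388077, minus strand: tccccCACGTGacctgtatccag
Ctsd, chr7:142387908-142387937, minus strand: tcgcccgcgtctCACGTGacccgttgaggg
Ctsl, chr13:64370739-64370768, minus strand: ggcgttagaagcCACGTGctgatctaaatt
Lgmn, chr12:102439124-102439153, minus strand: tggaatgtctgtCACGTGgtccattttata
Ctss, chr3:95526793-95526822, plus strand: ttgtggatgctTCATGTGAcaagctccgat
Ctss, chr3:95526773-95526802, plus strand: aatgaaagttcACTTCCTCattgtggatgc

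Cathepsin D was the highest of the 10 genes for its length in both groups. Ctsd (GRCm38 chr7:142375911-142388038, minus strand) was at 789, 1317, 1429 and 1154 CPM in MKs alone and at 2586, 2918, 3859 and 3853 CPM in cocultures. Its highest library of MKs alone was below the lowest coculture, and it had the smallest log2 fold change of the genes called, at 1.49 (SE 0.25, 2.82-fold, edgeR adjusted p = 0.0030). The lowest library of MKs alone was replicate 1.

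The cysteine cathepsins B, L, S and Z rose by 3.03-fold to 19.5-fold. Ctsb (chr14:63122462-63145923, plus strand), cathepsin B, which acts as both an endopeptidase and a peptidyl-dipeptidase, was at 495, 679, 618 and 524 CPM in MKs alone and at 4228, 4021, 3289 and 4494 CPM in cocultures. It was the most abundant of the 10 genes in 3 of the 4 cocultures before scaling by length, and its rise was 6.92-fold (log2 2.79, SE 0.21, edgeR adjusted p = 3.81e-05). Ctsl (chr13:64359337-64370890, minus strand), cathepsin L, a strong endopeptidase, was at 24.7, 30.4, 26.9 and 35.6 CPM in MKs alone and at 581, 556, 631 and 533 CPM in cocultures. Cocultures and MKs alone were each close together and did not overlap, and the fold change was 19.5 (log2 4.29, SE 0.20, edgeR adjusted p = 6.11e-06).

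Ctss (chr3:95526786-95556403, plus strand) encodes cathepsin S, the protease that trims the invariant chain of MHC class II in antigen-presenting cells. It was at 322, 229, 169 and 249.7 CPM in MKs alone and at 799, 566, 833 and 743 CPM in cocultures. All cocultures were higher than all MKs alone, by 3.03-fold (log2 1.60, SE 0.24, edgeR adjusted p = 0.0017). Ctsz (chr2:174427493-174439039, minus strand), cathepsin Z, a carboxypeptidase, was at 116, 187, 183 and 153 CPM in MKs alone and at 565, 575, 821 and 839.7 CPM in cocultures. Its values in cocultures 3 and 4 were above those in cocultures 1 and 2, and all were above MKs alone, by 4.38-fold (log2 2.13, SE 0.24, edgeR adjusted p = 0.00034). Lgmn (chr12:102394084-102439813, minus strand), which cleaves after asparagine and processes cathepsin precursors, was at 10.4, 21.9, 17.9 and 16.1 CPM in MKs alone and at 82.1, 99.5, 99.2 and 75.5 CPM in cocultures. The rise was 5.37-fold with no overlap (log2 2.42, SE 0.29, edgeR adjusted p = 0.00047).

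Cathepsin K was absent or nearly so from 1 coculture. Ctsk (chr3:95499256-95509362, plus strand) had 0, 4, 1 and 5 counts in MKs alone, and 290, 232, 1 and 156 counts in cocultures. It was at 27.5, 30.2 and 27.1 CPM in cocultures 1, 2 and 4 and at 0.105 CPM in coculture 3, within the range of 0 to 0.813 CPM of MKs alone. Ctsk did not pass the filter of edgeR. DESeq2, which kept it, called it higher (log2 fold change 5.93, adjusted p = 4.72e-05), as did edgeR without coculture 3 (log2 fold change 6.29, adjusted p = 4.16e-09), and both values rest on 10 counts in MKs alone. With no filter, edgeR called it with all 8 libraries (log2 fold change 5.88, adjusted p = 0.023). With so few counts in MKs alone, Ctsk could only have been called higher. Ctsk and Ctss lie next to each other on chromosome 3, 17423 bases apart on the same strand with 0 other annotated genes between them. Ctss was at 833 CPM in coculture 3, where Ctsk was at 0.105 CPM.

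Gpnmb (chr6:49036546-49070929, plus strand) had the largest fold change of the genes called. It was at 9.71, 16.4, 12.9 and 12.5 CPM in MKs alone and at 1329, 1123, 1349 and 1576 CPM in cocultures. The groups were far apart and the cocultures close together, at 104-fold (log2 6.70, SE 0.26, edgeR adjusted p = 4.09e-06). Its log2 fold change lay between 6.57 and 6.86 under all alternatives run, each library left out included.

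Trem2 and its ligand Apoe were highest in coculture 3. Trem2 (chr17:48346401-48354147, plus strand) was at 0.441, 1.96, 1.89 and 1.30 CPM in MKs alone and at 19.1, 25.01, 87.6 and 30.01 CPM in cocultures. Coculture 3 was at 3.55 times the mean of the other cocultures, and Trem2 was called with that library (log2 fold change 4.80, SE 0.71, edgeR adjusted p = 0.0016) and without it (4.0, adjusted p = 7.31e-08). Apoe (chr7:19696109-19699188, minus strand), a carrier of cholesterol and other lipids, was at 70.8, 127, 129 and 142 CPM in MKs alone and at 154, 178, 815 and 317 CPM in cocultures. The groups did not overlap, although coculture 1 was only slightly above replicate 4 of MKs alone, and coculture 3 was at 3.77 times the mean of the other cocultures. Apoe was 3.12-fold higher but missed the threshold (log2 1.64, SE 0.53, edgeR adjusted p = 0.055). It was called by DESeq2 (adjusted p = 0.017), and without coculture 3 its log2 fold change was 0.86 (edgeR adjusted p = 0.0093), below 2-fold.

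**Figure D2:**
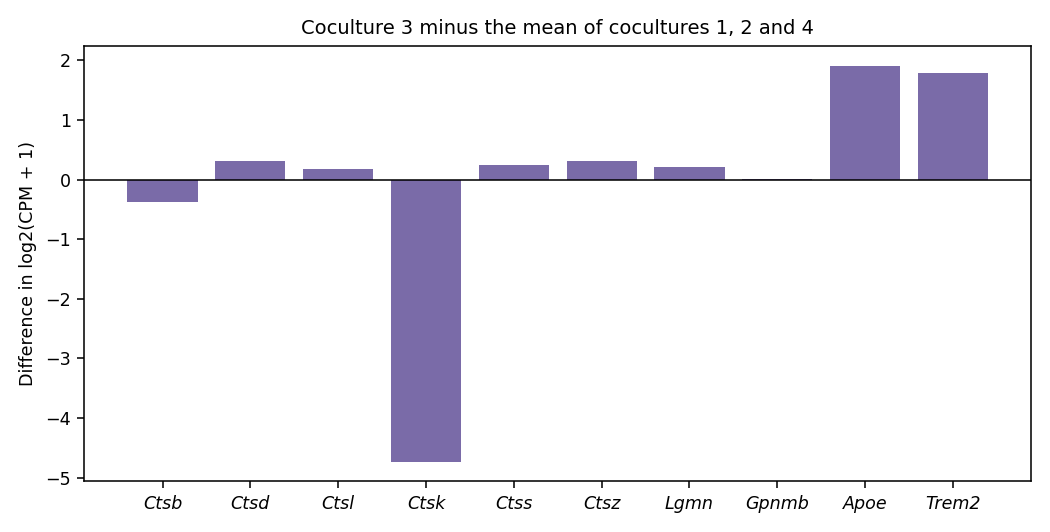
Difference in log2(CPM + 1) between coculture replicate 3 and the mean of cocultures 1, 2 and 4 for each of the 10 genes (bars). Ctsk is at -4.73, Apoe at 1.91 and Trem2 at 1.79, and the other genes lie between -0.37 and 0.31.

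The other 7 genes were closer to the other cocultures in coculture 3. Relative to the mean of cocultures 1, 2 and 4, Ctsb differed by -0.37 and Ctsd, Ctsl, Ctss, Ctsz, Lgmn and Gpnmb by 0.01 to 0.31 on the log2(CPM + 1) scale. Among the 10 MSC and stromal markers in the table, the median difference was -1.91, with a range of -4.88 to -1.01, and among macrophage markers it was -0.53. The 10 stromal markers summed to 1242 CPM in coculture 3, the lowest of the cocultures, and their part in the Ctsk value was not tested.

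The order of levels was compared per kilobase of transcript, since longer transcripts give more counts. In MKs alone it ran from Ctsd (551 ± 131 CPM per kb, SD, n = 4) to Ctss (179 ± 46.6), Ctsb (122 ± 17.9), Ctsz (111 ± 22.8), Apoe (99.8 ± 26.9), Lgmn (8.65 ± 2.49), Ctsl (7.23 ± 1.17), Gpnmb (3.48 ± 0.74), Trem2 (1.28 ± 0.65) and Ctsk (0.22 ± 0.24). The ranges of the libraries did not overlap at 4 steps of this order, between Ctsd and Ctss, Apoe and Lgmn, Ctsl and Gpnmb, and Gpnmb and Trem2. In cocultures the order was Ctsd (1553 ± 306), Ctsb (845 ± 109), Ctss (543 ± 87.8), Ctsz (486 ± 104), Gpnmb (363 ± 50.0), Apoe (312 ± 262), Ctsl (141 ± 10.4), Lgmn (46.6 ± 6.37), Trem2 (37.1 ± 29.2) and Ctsk (14.03 ± 9.36). Here the neighbours that did not overlap were Ctsd and Ctsb, Ctsb and Ctss, and Ctsl and Lgmn. Gpnmb moved from place 8 to place 5. Ctsl is the least certain, because its principal transcripts are 1971 or 6168 bases long.

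The makeup of the cathepsin transcripts is given without a test. Of the summed CPM per kb of 15 cathepsins including legumain, Ctsd held 38.1% ± 5.67 in MKs alone and 39.0% ± 4.28 in cocultures (SD, n = 4), a difference smaller than the spread. Ctsb held 8.51% ± 0.35 and 21.6% ± 3.56, and Ctsl 0.51% ± 0.09 and 3.60% ± 0.42, without overlap between groups. The Ctsl shares depend on the length used. They were 1.05% and 7.16% with the shortest principal transcript of each gene, and 0.38% and 2.62% with all exons of each gene joined. The share of Ctsg, cathepsin G, a serine protease of neutrophil granules, was 11.9% ± 1.41 in MKs alone and 0.27% ± 0.13 in cocultures. Ctsh was at 8.43% ± 0.52 and 2.99% ± 0.69. The sum itself was 1227 to 1597 CPM per kb in MKs alone and 3604 to 4386 in cocultures. Without length scaling, Ctsb was the largest share in cocultures, at 39.2%, and Ctsd followed at 32.1%.

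**Figure D3:**
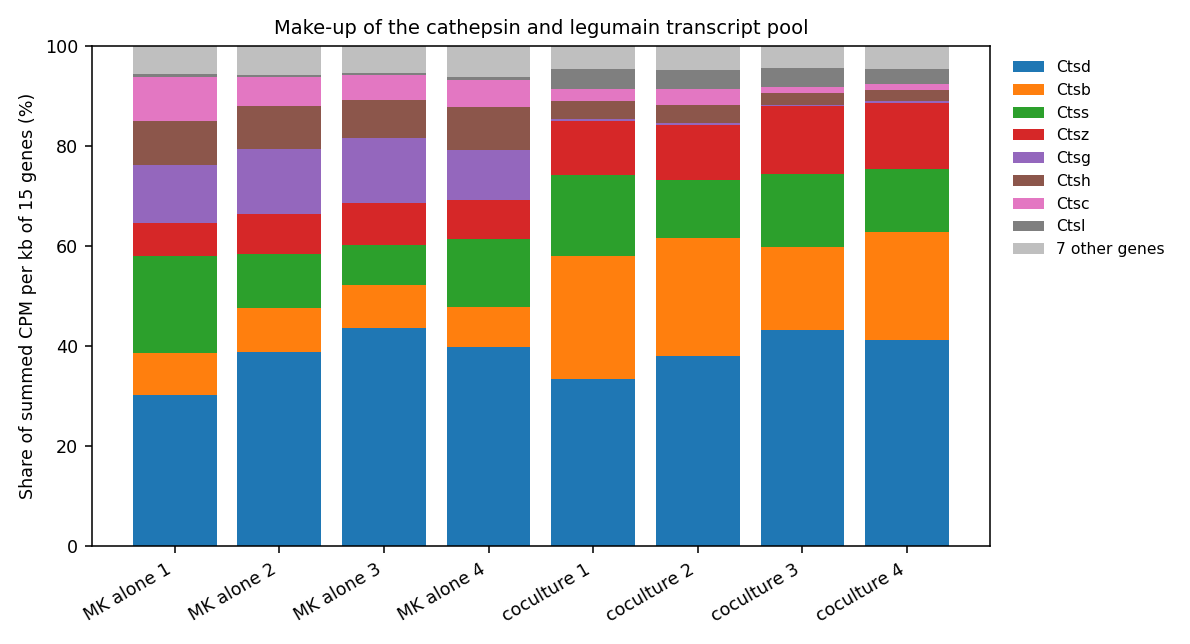
Share of each cathepsin in the summed CPM per kb of 15 genes (stacked bars, percent) in each library (x axis), with 7 genes drawn together. Ctsd holds 38.1% in MKs alone and 39.0% in cocultures on average, while Ctsb holds 8.51% and 21.6% and Ctsg 11.9% and 0.27%.

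Of the 8 other cathepsin genes, 1 was called higher and 3 lower, against 13.2% and 7.31% of all genes tested. Ctsa, protective protein of the lysosomal sialidase complex, rose from 103 ± 21.3 to 358 ± 97.3 CPM (log2 1.80, edgeR adjusted p = 0.0013). Ctsg fell from 171 ± 37.4 to 10.3 ± 4.77 CPM (log2 -4.05, adjusted p = 0.00036), Ctse from 32.0 ± 1.80 to 2.14 ± 1.94 CPM (log2 -3.90, adjusted p = 0.011) and Ctsw from 2.08 ± 0.50 to 0.15 ± 0.19 CPM (log2 -3.67, adjusted p = 0.024). Ctsw was not called when replicate 1, 2 or 4 of MKs alone or coculture 1 or 4 was left out (edgeR adjusted p of 0.060 to 0.077), and it was not tested without replicate 3 of MKs alone. It passed the filter through MKs alone, so that it could only have been called lower. Ctse is an intracellular aspartic protease and Ctsw a protease of cytotoxic lymphocytes. Neutrophil markers fell in the same libraries, 9 of 9 called lower, and B cell markers 4 of 7, against 7.31% of all genes tested. The B cell markers were led by Ms4a1, which was not called without replicate 1 of MKs alone or coculture 2 (edgeR adjusted p of 0.055 and 0.054). The part of neutrophil and B cell markers in these values was not tested. Ctsc, Ctsh, Ctsf and Ctso were not called, with edgeR adjusted p of 0.66, 0.86, 0.84 and 0.72. Ctso was at 0.732 CPM in coculture 3 and at 60.0 to 82.4 CPM in the other cocultures.

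Cathepsin inhibitors moved in both directions, 2 higher and 4 lower of 11 tested, with a median log2 fold change of -2.23. Without coculture 3 they were 3 and 7, and DESeq2 called 1 higher and 7 lower. Of all genes tested, 13.2% were called higher and 7.31% lower with all 8 libraries in edgeR. Without coculture 3, 2530 of 12267 were higher and 1890 lower, and DESeq2 called 2296 of 13387 higher and 1345 lower. Cstb, stefin B, a cytosolic inhibitor of cathepsins, rose from 92.8 ± 5.13 to 729 ± 786 CPM (log2 2.97, edgeR adjusted p = 0.0099). The coculture mean was set largely by coculture 3 at 1908 CPM, although the others, at 322 to 349 CPM, were also above MKs alone. DESeq2 gave Cstb no adjusted p. Cst6, cystatin M, was at 0, 0, 2 and 0 counts in MKs alone and at 13.2 ± 9.99 CPM in cocultures (edgeR adjusted p = 0.0025), and no fold is given. Cst6 passed the filter through the cocultures, so that it could only have been called higher. Serpinb1a, which inhibits cathepsin G and neutrophil elastase, fell from 889 ± 109 to 119 ± 55.7 CPM (log2 -2.90, adjusted p = 0.0013). Stfa2l1 (log2 -2.71, adjusted p = 4.03e-05) and BC100530 (log2 -2.23, adjusted p = 0.038) belong to the stefin A family, whose near-identical copies make single values uncertain. BC100530 lost its call when any library except coculture 3 was left out (adjusted p of 0.051 to 0.093). Cst7, the fourth called lower, had a log2 fold change of -1.83 (adjusted p = 0.0054).

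Other lysosomal genes were taken from lists of the organelle's parts, and their counts stand beside 13.2% of all genes tested called higher and 7.31% called lower. Of the 35 lysosomal hydrolases tested, 10 were called higher and 0 lower, with a median log2 fold change of 0.44, of which Scpep1 (2.10, edgeR adjusted p = 0.0031), Aga (1.73, adjusted p = 0.0011) and the sphingolipid activator precursor Psap (1.56, adjusted p = 0.0040) were the largest. Of the 20 lysosomal membrane proteins, 6 were higher and 0 lower with a median of 0.53, led by Cd68, a macrophage lysosomal glycoprotein that rose from 38.7 ± 7.12 to 298 ± 143 CPM (log2 2.94, adjusted p = 0.00043), Laptm4b (2.68, adjusted p = 0.00026) and Slc11a1 (1.71, adjusted p = 0.00078). Of the 18 subunits and partners of the proton pump that acidifies lysosomes, 4 were higher and 0 lower with a median of 0.58, coculture 3 included. In coculture 3 the pump genes were above the mean of the other cocultures by a median of 0.74 on the log2(CPM + 1) scale. They summed to 7038 CPM there, against 4158 CPM in the lowest coculture and 3766 to 4034 CPM in MKs alone. Tcirg1 had a log2 fold change of 1.77 (adjusted p = 0.0072) and Atp6v0c one of 1.18 (adjusted p = 0.032), which was 0.74 and below 2-fold without coculture 3. Atp6v0c was also not called without coculture 4 or any library of MKs alone (adjusted p of 0.057 to 0.089). At an unadjusted p under 0.05 in edgeR, 3 hydrolases, 2 membrane proteins and 1 pump gene were lower, and DESeq2 called none of these 3 lists' genes lower. Without coculture 3, edgeR called 2 hydrolases lower (Arsb and Gm2a), and 2 pump genes higher in place of 4. In that fit 20.6% of all genes tested were called higher and 1890 of 12267 lower. Atp6v0d2, a pump subunit of osteoclasts and macrophages, was at 0, 0, 4 and 1 counts in MKs alone and at 33.2 ± 24.6 CPM in cocultures (adjusted p = 0.0025). With so few counts in MKs alone, Atp6v0d2 could only have been called higher.

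Of the 11 genes for lysosomal sorting and MiT/TFE factors, 2 were higher and 0 lower in edgeR, where 1 was lower at an unadjusted p under 0.05, and DESeq2 called 1 lower. This is near the share of all genes tested in edgeR, of which 13.2% were called higher and 7.31% lower. Igf2r, the receptor that carries mannose-6-phosphate proteins to lysosomes, rose from 6.65 ± 1.61 to 54.7 ± 20.1 CPM (log2 3.03, edgeR adjusted p = 0.00058), and the progranulin gene Grn from 207 ± 43.8 to 582 ± 195 CPM (log2 1.49, adjusted p = 0.0060). The transcription factors Tfeb, Tfe3, Mitf and Tfec, named after their values were seen, were not called, with log2 fold changes of 0.11, 0.01, 0.09 and -0.08 and adjusted p of 0.94, 0.98, 0.96 and 0.95. Without coculture 3, Tfeb (log2 -1.38, adjusted p = 0.0018) and Tfec (log2 -1.70, adjusted p = 4.91e-05) were called lower, as was Sort1 (log2 -1.99, adjusted p = 2.58e-07).

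Of the 24 tested genes of TREM2 signalling and lipid handling, 12 were called higher and 1 lower, against 13.2% and 7.31% of all genes tested. The median log2 fold change was 2.06. Without coculture 3, where the filter was applied anew and the number tested can differ, 15 were called higher and 6 lower. In that fit 20.6% of all genes tested were higher and 1890 of 12267 lower. DESeq2, run without that filter, called 13 and 3 of the 26 genes of this list with counts, and 12 and 3 of the 24. It called 17.2% of all genes higher and 1345 of 13387 lower. Spp1, osteopontin, rose from 49.8 ± 10.6 to 10261 ± 2697 CPM (log2 7.69, edgeR adjusted p = 6.11e-06). Gas6 was at 0, 0, 3 and 0 counts and Fabp4 at 0, 0, 0 and 2 counts in MKs alone, against 41.8 ± 15.4 and 24.8 ± 21.3 CPM in cocultures (adjusted p = 0.00038 and 0.0019). Both passed the filter through the cocultures, so that they could only have been called higher. Syk, the kinase downstream of Trem2 and Tyrobp, fell from 213 ± 30.7 to 92.6 ± 12.9 CPM (log2 -1.20, adjusted p = 0.0024). Tyrobp, named after its values were seen, was at 849.5 ± 160 and 409 ± 222 CPM (log2 -1.05, adjusted p = 0.058), with coculture 3 at 739.9 CPM and the others at 275 to 333 CPM, and without coculture 3 it was called lower (log2 -1.53, adjusted p = 5.62e-06), as it was by DESeq2 (adjusted p = 0.032).

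**Figure D4:**
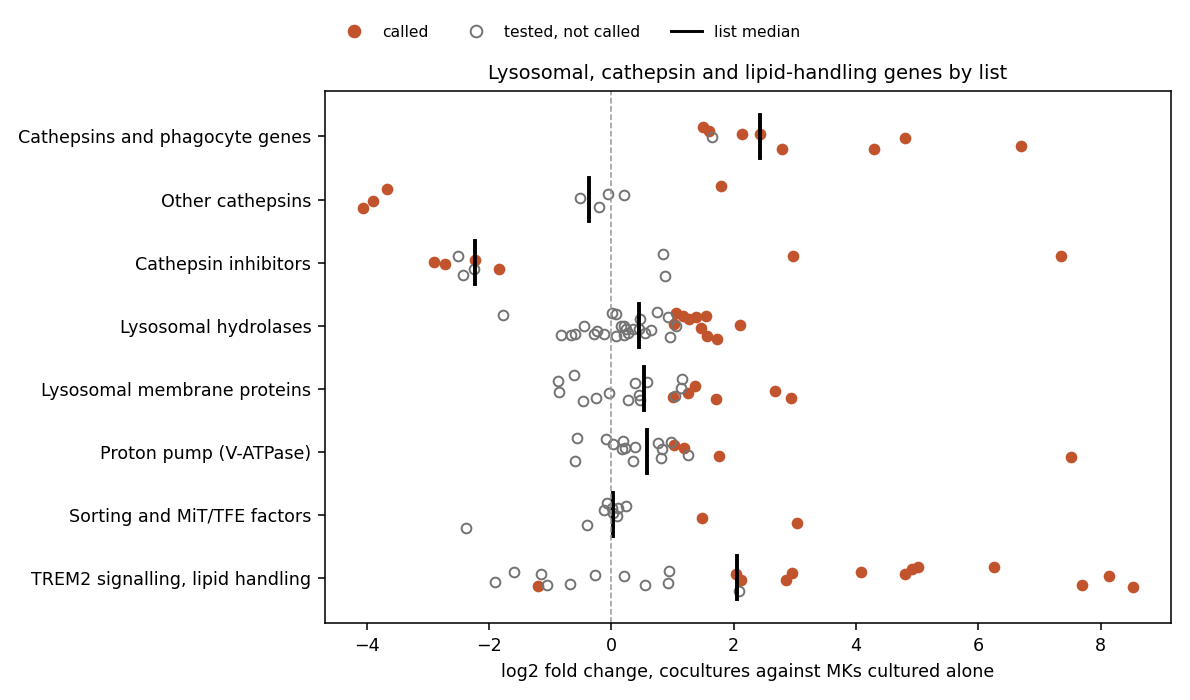
Log2 fold changes of cocultures against MKs alone (x axis) for each tested gene of 8 gene lists (rows); filled points passed the calling rule, open points did not, and black ticks mark list medians. The median of the 9 cathepsin and phagocyte genes is 2.42, that of TREM2 signalling and lipid handling 2.06, and those of the hydrolases, membrane proteins and proton pump lie between 0.44 and 0.58. All medians include coculture replicate 3.

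Markers of other cells moved with these results. The 11 macrophage markers summed to 131 to 195 CPM in MKs alone and to 850 to 1596 CPM in cocultures. Of the 9 tested, 8 were called higher, against 13.2% of all genes tested, with Csf1r at 105 ± 26.4 and 263 ± 79.5 CPM. The 10 stromal markers summed to 42.8 to 71.1 CPM and to 1242 to 4122 CPM, led by Sparc at 0.55 ± 0.43 and 963 ± 361 CPM. The 5 osteoclast markers in the table summed to 1187 to 1560 CPM in MKs alone and to 113 to 346 CPM in cocultures, mostly Mmp9, which fell with a log2 fold change of -2.92 (edgeR adjusted p = 0.0013). The parts of these cells in the 10 genes were not tested.

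Across the 8 libraries, the genes most like the mean profile of the 10 genes were Avpi1, Rhoc, Cep170b, Nab2 and Phlda3, with Pearson's r of 0.995 to 0.998 among 9047 genes with a mean of at least 10 CPM. The libraries form 2 separate groups, so that these correlations, which are given without a test, mostly hold the difference between groups. Among the 10 genes, r with this profile was lowest for Ctsk at 0.71 and Apoe at 0.76 and highest for Gpnmb at 0.995. The lowest correlation of a pair was 0.13, for Apoe and Ctsk, and the highest 0.997, for Gpnmb and Ctsl.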

How the data were processed

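The authors deposited 1 table of raw counts per gene for 8 low-input SMART-Seq HT libraries, 4 of MKs cultured alone and 4 of MKs cocultured with MSCs. The methods and the submitters' processing notes name fastp, kallisto on mm10 and DESeq2. How transcripts were summed to genes, which genes were kept in the table and whether strand was used are not given in the sources used here. The calling rule follows the cutoffs in the methods, with CPM in place of TPM. All 8 libraries entered 1 fit without covariates (the methods name a batch term, but the labels give no batch, so batch could not be fitted), with TMM factors, filterByExpr and edgeR's robust quasi-likelihood test (edgeR 4.0.16, R 4.3.3). The fit was tested on simulated counts with changes only in genes of high count and no library like coculture 3. That test therefore covers neither genes of low count nor such a library. A floor of 3 counts equals 0.28 to 0.66 CPM per library and covers counting error only. Lengths came from GENCODE vM21 principal transcripts (GRCm38, the build of mm10), as the median per gene. The 10 genes and all gene lists were chosen with earlier results of these data known. The genes named were the 10 genes, all other cathepsins, up to 3 higher and 3 lower per other list by log2 fold change with a mean of at least 10 CPM in a group, the highest gene of each marker list and the 5 genes most like the 10; others were chosen after their values were seen. Alternatives were DESeq2 1.42.0, other scalings and filters, the replicate number as a block and each library left out.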

Additional observations from a re-analysis of the deposited data

Results flagged for a closer look

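Of 46 groups of 4 libraries examined for a value far from the rest, 5 held one, where chance gives about 1 in 20 groups, or 2.3. Of these 5, 4 were in coculture replicate 3, on the log2(CPM + 1) scale. Ctsk was at 0.14 there against 4.81 to 4.96 in the other cocultures. The summed cathepsin inhibitors were at 11.5 against 9.78 to 9.89, the summed neutrophil markers at 12.1 against 13.2 to 13.3, and the summed B cell markers at 5.96 against 7.58 to 7.79. In MKs alone, Apoe was at 6.17 in replicate 1 against 6.997 to 7.16 in the others.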

How the results depend on the processing

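The number of the 10 genes called higher was 8 with edgeR, where 13.2% of all genes tested were called higher. It was also 8 with RLE factors (12.7% of all genes tested), the filter of 10 counts (13.2%) and the replicate number as a block (9.35%). It was 9 with library size only (13.7%), scaling to MK markers (14.9%) and no filter (13.5%). DESeq2 called all 10 higher, and 17.2% of all genes. Dropping each library in turn gave 8 to 9 of the 10 genes, against 8.6% to 20.6% of all genes tested. The highest share, 20.6%, came without coculture 3. None of the 10 was called lower under any of these. Of all genes, 1345 of 13387 were lower with DESeq2 and 1890 of 12267 without coculture 3. Of 135 single values of the 9 genes tested (all but Ctsk) under alternatives, 130 kept their direction and side of the threshold and 5 passed it where the reported value did not, all of them for Apoe. Of the genes in the other lists, 37 were called higher (31 with the block, 31 to 38 with a library left out) and 8 lower (7 with the block, 6 to 21 with a library left out, 14 with DESeq2), where 21 is without coculture replicate 3. Without replicate 1, 2 or 3 of MKs alone, Ctsk was not called (edgeR adjusted p = 0.067, 0.069 and 0.073), and without replicate 4 it was (adjusted p = 0.049). Of 210 pool shares, 178 moved by less than 1 SD, but many of these left out 1 of 4 libraries, which cannot move a mean that far. Without length scaling, the share of Ctsb moved from 8.51% to 19.2% in MKs alone and from 21.6% to 39.2% in cocultures. That of Ctsd in MKs alone stayed near 38.1%, at 38.6%. Over all genes tested, the median log2 fold change was 0.03 as reported, 0.14 with scaling to MK markers and -0.14 with the block. Deviations of same-numbered libraries from their group means correlated with r of 0.02 to 0.37, not above 0.1 in every pair, and not every library correlated best with its own number. With the block, Ctsw, BC100530, Atp6v0c, Ms4a1 and Tnfrsf11a were not called (edgeR adjusted p = 0.11, 0.076, 0.075, 0.051 and 0.062), and Tyrobp was called lower (adjusted p = 0.041).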

Other observations

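Osteoclast genes, which share Ctsk and Atp6v0d2 with the lysosomal genes, moved in both directions. Of 4 tested, 1 was called higher and 2 lower, against 13.2% and 7.31% of all genes tested. Tnfrsf11a, the receptor for the osteoclast factor RANKL, was at 1.20 ± 0.89 CPM in MKs alone and 24.2 ± 14.5 CPM in cocultures (SD, n = 4, log2 fold change 4.27, edgeR adjusted p = 0.011). It passed the filter through the cocultures, so that it could only have been called higher. Mmp9, a secreted gelatinase that neutrophils also hold, was at 1061 ± 208 and 139.9 ± 72.7 CPM (log2 fold change -2.92, adjusted p = 0.0013), and Car2, carbonic anhydrase 2, named after its values were seen, at 326 ± 44.7 and 74.1 ± 33.5 CPM (log2 fold change -2.14, adjusted p = 0.0036). Acp5, tartrate-resistant acid phosphatase, was at 12.5 ± 3.22 and 9.44 ± 4.47 CPM (log2 fold change -0.40, adjusted p = 0.59). Dcstamp, a fusion protein of osteoclasts, was at 0 in every library of MKs alone and at 0.35 to 3.35 CPM in cocultures, and was not tested.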
